A study of Mus musculus with 4 samples.

Results

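The 9 genes described here are members and partners of the low-density lipoprotein (LDL) receptor family: the endocytic receptors Lrp1, Lrp8, Vldlr, Sorl1, Lrp10 and Lrp12, the Wnt coreceptors Lrp5 and Lrp6, and the receptor chaperone Lrpap1. They were taken by name from the 24422 genes that could be named in the files. For each gene the RefSeq transcript with the highest mean raw count over all libraries stood for the gene, so the transcript was chosen by its raw count, and the gene by its name. The 9 genes had 13 transcripts, and 3 of the genes had more than 1. The data were 4 poly(A) RNA sequencing libraries of RAW 264.7 cells, a mouse macrophage line. Cells stably carrying Dnm3os, a long noncoding RNA, in the pcDNA 3.1(+) plasmid gave 2 libraries, and cells stably carrying the same plasmid empty gave 2. All cells were at passages 3 to 6 and grew in medium with 5.5 mmol/L glucose; the labels do not say whether a line was 1 clone or a pool, nor whether same-group libraries stem from independent cultures, so p-values measure only the spread between these libraries, which may be technical.

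LDL receptor family proteins are cell surface receptors that bind extracellular ligands through cysteine-rich repeats, carry them into the cell and release them in endosomes. Macrophages use Lrp1 to take up lipoproteins, protease-inhibitor complexes and apoptotic cells. Lrp5 and Lrp6 instead pair with Frizzled receptors at the cell surface, and their phosphorylated tails hold back the destruction of beta-catenin when a Wnt protein is bound. Lrpap1 is the chaperone that keeps these receptors from binding ligands in the endoplasmic reticulum.

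The coding sequences separate the members by short codon patterns known from receptor tails. The stretches below show these patterns for the coreceptors Lrp5 and Lrp6 and for the most abundant endocytic receptors, Lrp1 and Lrp8. They were read from GENCODE M21 transcript models matched to the kept RefSeq transcripts, with capitals marking codons found in frame. The codons for asparagine, proline, any residue and tyrosine form the family's internalisation signal where they lie in the tail. They occurred 3 times in the coding sequence of Lrp1 and 1 time each in Lrp8 and Vldlr. In the other 6 members they were not found. Whole coding sequences were searched, so a match may lie outside the tail. The stretches shown hold a match with 12 bases on either side. That around the last match of Lrp1 spans coding bases 13501 to 13536, and that around the match of Lrp8 spans 2296 to 2331. The codons for proline, proline, proline, serine or threonine, and proline form the core of the tail motif that is phosphorylated in Wnt coreceptors. Exact matches occurred 3 times each in Lrp5 and Lrp6 and in no other member. Variant copies of the motif were not counted. The first match is shown for both with the same flanks, in a stretch spanning coding bases 4483 to 4521 of Lrp5 and 4447 to 4485 of Lrp6. The models of Lrp5 and Lrp6 shared no exact run longer than 22 bases, and this run, shown as the last line, holds in capitals the tyrosine-tryptophan-threonine-aspartate codons of the propeller repeats.
Lrp1 internalisation codons: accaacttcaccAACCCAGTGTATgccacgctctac
Lrp8 internalisation codons: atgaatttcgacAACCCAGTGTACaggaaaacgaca
Lrp5 tail codons: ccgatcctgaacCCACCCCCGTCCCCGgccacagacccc
Lrp6 tail codons: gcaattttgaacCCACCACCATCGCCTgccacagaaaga
Lrp5 and Lrp6 longest shared run: tcatgTACTGGACAGACtgggg

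No pair of the 9 transcript models shared a longer run than those 22 bases on either strand. The propeller codons occurred 11 times in Lrp5, 10 times in Lrp6, 10 times in Lrp1 and 1 time each in Lrp8, Vldlr and Sorl1. They were not found in Lrp10, Lrp12 or Lrpap1.

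Lrp5 was the member that differed most between the groups. Its raw counts were 1319 and 1537 in Dnm3os libraries 1 and 2, against 661 and 560 in empty vector libraries 1 and 2. Scaled to library size, its levels were 44.95 and 44.96 CPM (counts scaled to a common library size) in the Dnm3os libraries, against 16.6 and 15.9 CPM in the empty vector libraries. Both Dnm3os libraries lay far above both empty vector libraries, and the libraries of a group lay close together. Lrp5 averaged 44.96 ± 0.00536 CPM in cells carrying Dnm3os and 16.3 ± 0.514 CPM in empty vector cells (SD, n = 2 each). It was 2.76-fold higher with Dnm3os, a log2 fold change of 1.47 ± 0.06 with a 95% interval of 1.34 to 1.59 (adjusted p = 2.53e-14 by edgeR's quasi-likelihood test, Benjamini-Hochberg adjusted over 13136 genes). It ranked at position 113 by log2 fold change and at position 12 by p among those genes, and 1.19% of them had a larger absolute change. In bulk RNA, more cells that express a gene and more RNA per cell cannot be told apart.

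Lrp6, the close relative of Lrp5, had 65.8 and 63.3 CPM in the Dnm3os libraries, against 64.6 and 69.8 CPM in the empty vector libraries, and these ranges overlapped. Its log2 fold change was -0.06 ± 0.05, with a 95% interval of -0.15 to 0.04 (adjusted p = 0.516 by edgeR). A change of Lrp6 as large as that of Lrp5 lay outside this interval.

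To set the coreceptors side by side, CPM were divided by the length of the transcript model, 5161 bases for Lrp5 and 9368 for Lrp6. Lrp5 then stood at 8.710 and 8.712 CPM per kilobase in the Dnm3os libraries, against 3.22 and 3.08 in the empty vector libraries. Lrp6 stood at 7.02 and 6.76 CPM per kilobase in the Dnm3os libraries, against 6.89 and 7.45 in the empty vector libraries. Per length, Lrp5 was thus above Lrp6 in both Dnm3os libraries and below it in both empty vector libraries. In CPM not divided by length, Lrp5 (44.95 and 44.96) was below Lrp6 (65.8 and 63.3) in the Dnm3os libraries too. The order with Dnm3os and the shares below therefore depend on the model lengths. The coding parts of the models are nearly equal, at 4842 bases for Lrp5 and 4839 for Lrp6. Lrp5 made up 55.4 and 56.3% of the summed Lrp5 and Lrp6 level with Dnm3os, against 31.9 and 29.2% with the empty vector. The sum of both was 15.7 and 15.5 CPM per kilobase with Dnm3os, against 10.1 and 10.5 with the empty vector.

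**Figure D1:**
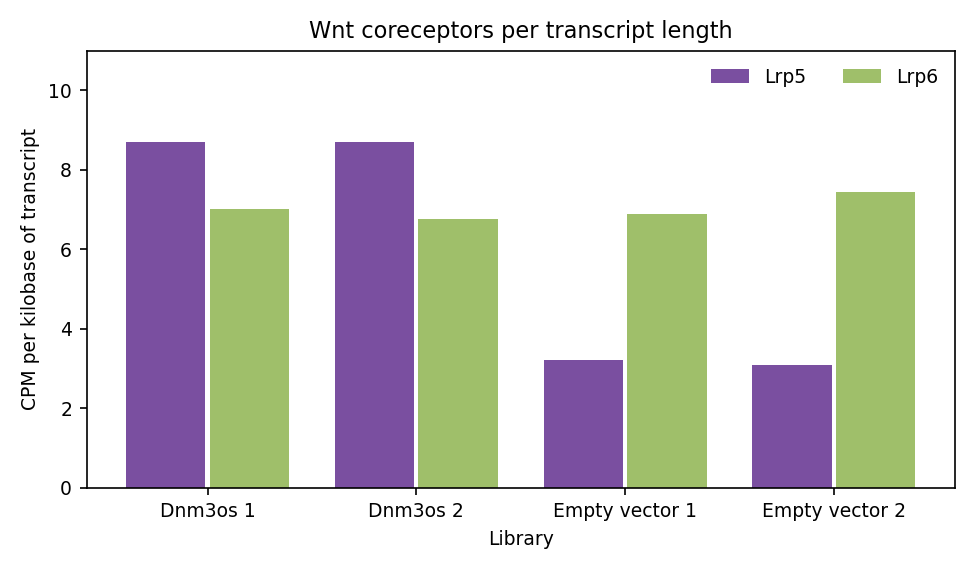
Level of the Wnt coreceptors Lrp5 and Lrp6 in each library, in CPM per kilobase of transcript; each bar is 1 library. Lrp5 is at 8.710 and 8.712 in the Dnm3os libraries against 3.22 and 3.08 in the empty vector libraries, while the Lrp6 bars stay between 6.76 and 7.45. In CPM not divided by length, Lrp5 is below Lrp6 in every library.

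Lrp12, a transmembrane receptor with LDL receptor class A repeats, was the other member that rose. Its counts were 736 and 844 in the Dnm3os libraries, against 803 and 715 in the empty vector libraries. These correspond to 25.1 and 24.7 CPM with Dnm3os, against 20.2 and 20.3 CPM with the empty vector, and the groups did not overlap. Lrp12 was 1.23-fold higher with Dnm3os, with a log2 fold change of 0.30 ± 0.06 and a 95% interval of 0.16 to 0.43 (adjusted p = 0.00248 by edgeR). DESeq2 gave nearly the same change, with an adjusted p of 0.0506 that did not pass the threshold. The second Lrp12 transcript held 97.9 to 98.4% of the count of the kept one in every library.

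Of the 8 members that passed the filter on low counts, 2 were called higher, where 6.48% of all genes tested were, and 0 were called lower, where 5.77% of all genes were. For the 0 lower, Lrp1 and Lrpap1 were the 2 members lower with an unadjusted edgeR p below 0.05. Neither DESeq2 nor limma-voom called a member lower (0 by both). The group ranges did not overlap for 5 of the 8, where this held for 51.2% of all genes tested. The median log2 fold change of the 8 was 0.01, beside 0.00 over all genes tested.

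**Figure D2:**
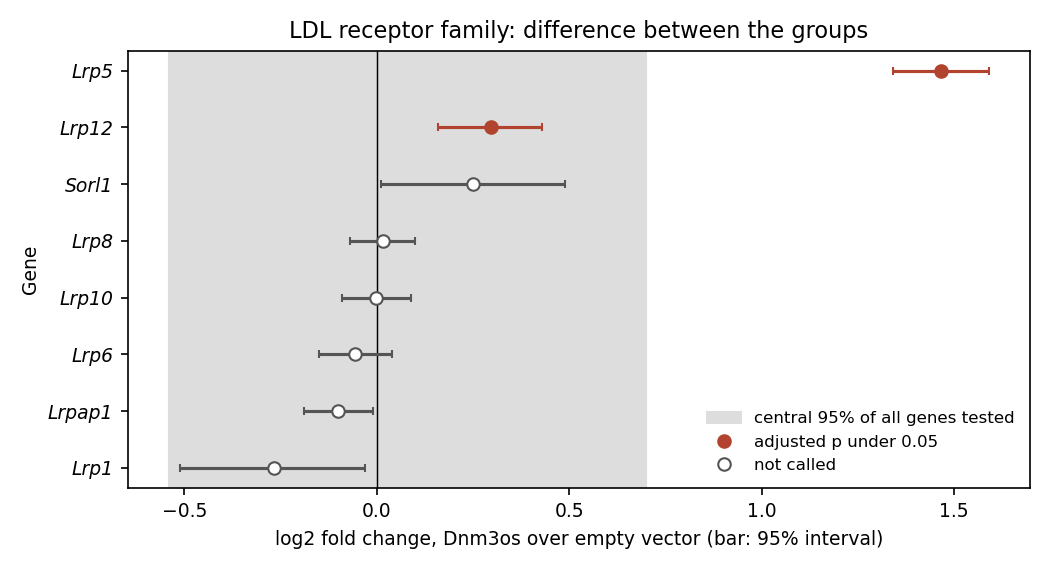
Log2 fold change, Dnm3os over empty vector, of the 8 members tested, with 95% intervals of each gene alone; filled points passed an adjusted p of 0.05. Lrp5 at 1.47 lies beyond the grey band, which spans -0.54 to 0.70 and holds the central 95% of all 13136 genes tested, while the other members lie inside it.

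Lrp1, the large endocytic receptor, was the member with the most counts. It had 14093 and 16889 counts in the Dnm3os libraries, against 21754 and 22046 in the empty vector libraries. Its levels were 480.3 and 494 CPM with Dnm3os, against 547 and 626 CPM with the empty vector. Both Dnm3os libraries were below both empty vector libraries, and the empty vector libraries differed from each other by more than the Dnm3os libraries did. Lrp1 averaged 487 ± 9.71 CPM with Dnm3os and 586 ± 55.7 CPM with the empty vector (SD, n = 2 each). Its log2 fold change of -0.27 ± 0.08 did not pass the threshold (adjusted p = 0.181 by edgeR; 95% interval of this gene alone from -0.51 to -0.03).

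The call of Lrp1 changed with the empty vector libraries used. With empty vector library 1 left out, the log2 fold change of Lrp1 was -0.37 (adjusted p = 5.45e-18 by edgeR), and with empty vector library 2 left out it was -0.17 (adjusted p = 0.000117 by edgeR). Either fit has 1 empty vector library, whose spread is taken from the other libraries. The replicate number as a block also gave a call (-0.26; adjusted p = 3.19e-08 by edgeR), and over all alternatives the adjusted p ranged from 5.45e-18 to 0.408.

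Lrp8, the apolipoprotein E receptor 2 that also binds reelin, had 86.3 and 92.3 CPM in the Dnm3os libraries, against 88.2 and 88.6 CPM in the empty vector libraries. The Dnm3os libraries lay on either side of both empty vector libraries. The log2 fold change was 0.02 ± 0.04, with a 95% interval of -0.07 to 0.10 (adjusted p = 0.883 by edgeR). A noncoding Lrp8 transcript held 77.8 and 79.1% of the kept transcript's count with Dnm3os, against 80.3 and 78.4% with the empty vector. Transcripts of a gene share exons, so such shares count many of the same reads.

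Lrp10, a receptor with class A repeats that cycles between the trans-Golgi network and endosomes, had 57.7 and 59.6 CPM with Dnm3os, against 57.5 and 59.9 CPM with the empty vector. Both Dnm3os values lay between the empty vector values. The 95% interval of its log2 fold change ran from -0.09 to 0.09 (adjusted p = 0.994 by edgeR).

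Sorl1, the sorting receptor that joins LDL receptor repeats to a VPS10 domain, was the lowest of the detected members. It had 179 and 204 counts in the Dnm3os libraries, against 199 and 181 in the empty vector libraries. At 6.10 and 5.97 CPM with Dnm3os, against 5.00 and 5.14 CPM with the empty vector, the groups did not overlap. The log2 fold change of 0.25 ± 0.12 did not pass the threshold (adjusted p = 0.194 by edgeR; 95% interval of this gene alone from 0.01 to 0.49).

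Lrpap1, the chaperone, had 56.9 and 59.3 CPM with Dnm3os, against 63.7 and 60.9 CPM with the empty vector. Both Dnm3os libraries were below both empty vector libraries. The log2 fold change was -0.10 ± 0.04, with a 95% interval of -0.19 to -0.01 (adjusted p = 0.170 by edgeR).

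Vldlr, the very low-density lipoprotein receptor, had 0 counts in all 4 libraries for each of its 3 transcripts. With 3 counts as the floor, this allows up to 0.102 and 0.0878 CPM in Dnm3os libraries 1 and 2, and up to 0.0754 and 0.0852 CPM in empty vector libraries 1 and 2. These limits cover counting error only.

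**Figure D3:**
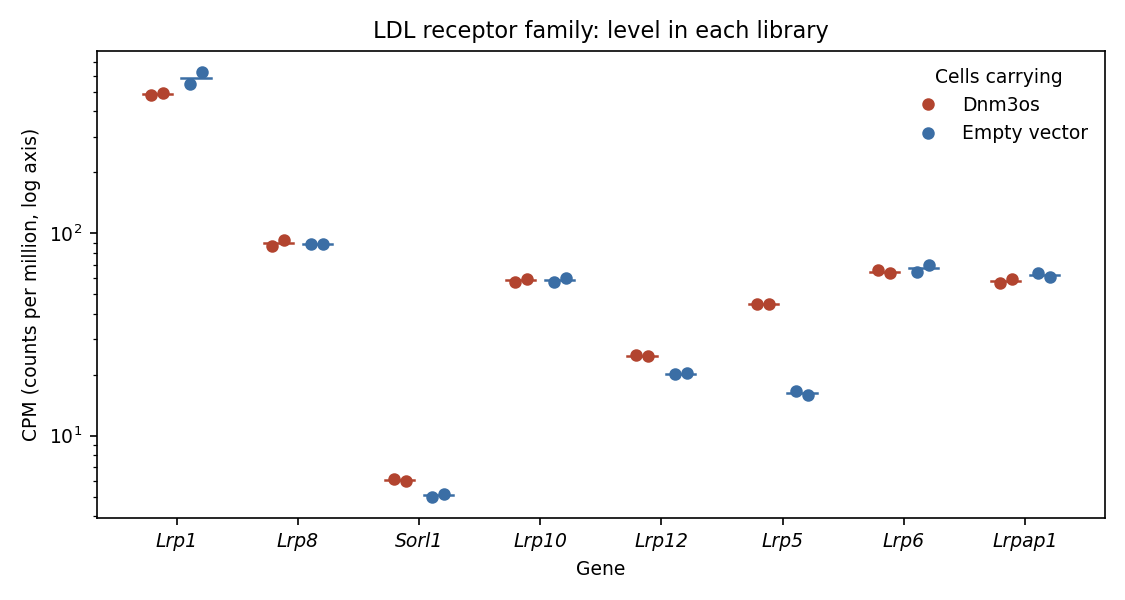
CPM of the 8 detected members in each library on a log axis; points are libraries and short lines group means. Vldlr, with 0 counts in every library, is not drawn. The Lrp5 points of the Dnm3os group (44.95 and 44.96) stand apart from those of the empty vector group (16.6 and 15.9), while Lrp8 and Lrp10 overlap.

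Per transcript length, the members spanned a wide range of levels in these cells. In the Dnm3os group, Lrp8 (33.7 CPM per kilobase) and Lrp1 (32.7) were highest and their libraries overlapped in level, followed by Lrpap1 (19.5), Lrp10 (13.9), Lrp5 (8.71), Lrp6 (6.89), Lrp12 (6.06) and Sorl1 (0.563). In the empty vector group, Lrp1 (39.4) was above Lrp8 (33.4), and Lrpap1 (20.9), Lrp10 (13.9), Lrp6 (7.17), Lrp12 (4.93), Lrp5 (3.15) and Sorl1 (0.473) followed. Apart from Lrp8 and Lrp1 in the Dnm3os group, the libraries of neighbours in either order did not overlap. Per kilobase, Lrp5 thus stood above Lrp6 and Lrp12 with Dnm3os and below both with the empty vector. In CPM not divided by length, Lrp5 was below Lrp6 in both groups. Over all 4 libraries, 81.2% of the genes tested with a known length had a lower level per kilobase than Lrp1, 38.1% a lower one than Lrp5 and 10.2% a lower one than Sorl1. The level of Lrp8 depends on its model, which has 2610 coding bases among 2648, whereas other models hold long untranslated regions.

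Promoters are shown for the most abundant member and for the one without counts. RefSeq promoter windows on GRCm38.p6, from 250 bases before to 50 after a start site, were on hand for 6 of the 9 members: Lrp1, Lrp8, Vldlr, Sorl1, Lrp10 and Lrpap1. Capitals mark the GC box (GGGCGG on either strand). The E-box (CACGTG) and the TATA box (TATAAA) were searched as well, and neither is in these 3 windows. The Lrp1 window is chr10:127621099-127621398, minus strand, and the Vldlr windows are chr19:27216234-27216533 and chr19:27216770-27217069, plus strand.
Lrp1 promoter: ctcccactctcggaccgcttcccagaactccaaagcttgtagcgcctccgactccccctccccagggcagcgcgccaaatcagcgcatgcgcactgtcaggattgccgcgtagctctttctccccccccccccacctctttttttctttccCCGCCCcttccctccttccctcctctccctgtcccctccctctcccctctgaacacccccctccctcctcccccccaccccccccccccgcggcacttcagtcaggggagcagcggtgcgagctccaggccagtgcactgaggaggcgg
Vldlr promoter, upstream start: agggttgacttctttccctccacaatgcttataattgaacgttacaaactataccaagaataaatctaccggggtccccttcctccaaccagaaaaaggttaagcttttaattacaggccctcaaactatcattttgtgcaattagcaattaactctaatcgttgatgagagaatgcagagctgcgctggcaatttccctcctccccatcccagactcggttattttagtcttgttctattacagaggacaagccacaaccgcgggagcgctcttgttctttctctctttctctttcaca
Vldlr promoter, downstream start: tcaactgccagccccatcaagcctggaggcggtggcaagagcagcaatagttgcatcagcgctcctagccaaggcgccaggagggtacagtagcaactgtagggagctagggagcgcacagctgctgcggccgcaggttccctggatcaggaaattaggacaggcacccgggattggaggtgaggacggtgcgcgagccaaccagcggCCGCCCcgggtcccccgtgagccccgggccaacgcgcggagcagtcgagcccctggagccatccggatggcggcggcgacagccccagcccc

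The Lrp1 window held 1 GC box and 16 CpG dinucleotides. The downstream Vldlr window, with 1 GC box and 23 CpG dinucleotides, was not poorer in either than that of Lrp1, and the upstream one had 0 GC boxes and 8 CpG dinucleotides. Lrpap1 had 5 GC boxes, and the first Sorl1 window had 1 GC box and 1 E-box. Over all 32851 promoter windows, 35.7% held a GC box, 7.15% an E-box and 13.6% a TATA box, and the median number of CpG dinucleotides was 7. The core letters of PU.1 sites (GAGGAA) were in 28.3% of windows and were found in the upstream Vldlr window and in that of Lrpap1. AP-1 letters (TGANTCA) were in 7.81% of windows and in none of the members' windows. A match of letters describes the window and shows no binding.

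Genes that work with the family were described by lists, counted in the same fit. Over all genes tested, 6.48% were called higher and 5.77% lower, 12.2% in either direction. A further list held 11 genes, namely receptors of the family or with class A repeats and the Lrp2-binding protein Lrp2bp. Of these, 5 could be tested, not Lrp2bp, and 0 rose and 0 fell (median log2 fold change -0.09). For these 0s the unadjusted edgeR p was below 0.05 for 0 higher and 1 lower, that being Lrp4. Neither DESeq2 nor limma-voom called any (0 by both), and 1 was lower once empty vector library 1 was left out. Lrp4, a relative of Lrp5 and Lrp6, had 68 and 70 counts with Dnm3os, against 100 and 120 with the empty vector (adjusted p = 0.149 by edgeR). Lrp3 and Lrp1b had 0 counts in all libraries. Lrp4, Lrp3 and Lrp1b were named after their values were seen.

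Of 24 adaptors, chaperones and shedding enzymes, 21 could be tested, of which 1 rose, 2 fell and 18 did not pass (median -0.03). Of all genes tested, 12.2% were called in either direction. Dab2, an endocytic adaptor that binds the internalisation signal, rose to 437 ± 1.09 CPM with Dnm3os, against 347 ± 2.38 CPM with the empty vector (log2 fold change 0.33 ± 0.03; adjusted p = 1.94e-08 by edgeR). The endocytic adaptor Numb fell to 68.4 ± 1.01 CPM with Dnm3os, against 84.0 ± 2.79 CPM with the empty vector (-0.29 ± 0.04; adjusted p = 1.21e-05 by edgeR). Dab2 and Numb were called under all 15 alternatives run for each. Mesd, the chaperone of Lrp5 and Lrp6, was at 0.02 on the log2 scale and was not called; it was named after its value was seen.

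Of 25 ligands, 14 could be tested, of which 3 rose, 4 fell and 7 did not pass (median -0.01). Beside these counts, 6.48% of all genes tested were called higher and 5.77% lower. The lipoprotein lipase Lpl, which binds Lrp1 and lipoproteins, rose (log2 fold change 0.22 ± 0.02), as did the gelatinase Mmp9 (0.48 ± 0.05). The growth factor Pdgfb (-0.19 ± 0.04) fell. Without Dnm3os library 2 the ligands lower were 2, and Pdgfb was among those lost.

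Lrp5 acts in the Wnt pathway, whose genes were counted in 3 lists, beside 12.2% of all genes tested that were called in either direction. Of 59 Wnt proteins, receptors and extracellular regulators, 28 had 0 counts in every library and 15 could be tested, of which 0 rose, 2 fell and 13 did not pass (median -0.13). For the 0 higher, the unadjusted edgeR p was below 0.05 for 1, and neither DESeq2 nor limma-voom called any (0 by both). The receptor Fzd7 fell to 4.07 ± 0.0822 CPM with Dnm3os, against 5.77 ± 0.129 CPM with the empty vector (-0.51 ± 0.12; adjusted p = 0.00724 by edgeR), and the Wnt carrier Wls fell (-0.16 ± 0.05). DESeq2 and the fit without Dnm3os library 2 called neither gene, and Wls was also lost without empty vector library 1 or Dnm3os library 1.

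Of 36 intracellular Wnt components, 31 could be tested, of which 1 rose, 2 fell and 28 did not pass (median -0.03). The corepressor Tle1 rose (0.25 ± 0.05), and the cytoskeletal linker Macf1 (-0.17 ± 0.03) and Ctnnb1, which encodes beta-catenin (-0.13 ± 0.03), fell. Without Dnm3os library 2 neither Macf1 nor Ctnnb1 was called, Ctnnb1 was also lost without empty vector library 2, and 4 components were lower with no filter on low counts.

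Of 20 genes known as Wnt targets in other tissues, 7 had 0 counts in every library. The 9 that could be tested gave 4 that rose, 1 that fell and 4 that did not pass (median 0.02). Those that did not pass were Dkk1 (-0.57), Znrf3 (-0.18), Lgr5 (0.02) and Ccnd1 (0.01), named after their values were seen. The nuclear receptor Ppard rose to 11.6 ± 0.543 CPM with Dnm3os, against 8.01 ± 1.29 CPM with the empty vector (0.53 ± 0.10; adjusted p = 0.00114 by edgeR). The transcription factor Myc (0.22 ± 0.04) and the hyaluronan receptor Cd44 (0.13 ± 0.03) rose, and the AP-1 member Fosl1 (-0.20 ± 0.06) fell. Leaving out empty vector library 2 or Dnm3os library 1 left 2 of these genes higher, and Cd44 was not called in either fit. Fosl1 was not called by DESeq2 or when any library but empty vector library 2 was left out.

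Of 21 genes of VPS10 receptors, retromer and endosomal sorting, the machinery that Sorl1 works with, 18 could be tested. Of those, 1 rose, 1 fell and 16 did not pass (median -0.03), where 12.2% of all genes tested were called in either direction. The called genes were the sorting nexins Snx2 (0.12 ± 0.03) and Snx3 (-0.14 ± 0.03), and DESeq2 called neither. Lower genes of this list were 2 with upper-quartile or total-count scaling, limma-voom, no filter, the 1 CPM filter or every transcript as a row. Snx2 was not called when any library but empty vector library 2 was left out, nor Snx3 when Dnm3os library 1 was. Leaving out empty vector library 1 gave 3 lower genes of this list. Of 28 genes of sterol regulation, all tested, 3 rose, 2 fell and 23 did not pass (median 0.05), beside the same 12.2% of all genes. The cholesterol exporter Abca1 (0.37 ± 0.07) and the sterol synthesis enzymes Idi1 (0.12 ± 0.03) and Dhcr7 (0.20 ± 0.06) rose, and the exporter Abcg1 (-0.21 ± 0.06) fell. Only Abca1 of these 4 was called in every alternative; Idi1 and Dhcr7 were lost by DESeq2, with isoforms summed and without either Dnm3os library. Idi1 and Abcg1 were lost without empty vector library 2, Dhcr7 without empty vector library 1, and Abcg1 also without Dnm3os library 1 and with isoforms summed.

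**Figure D4:**
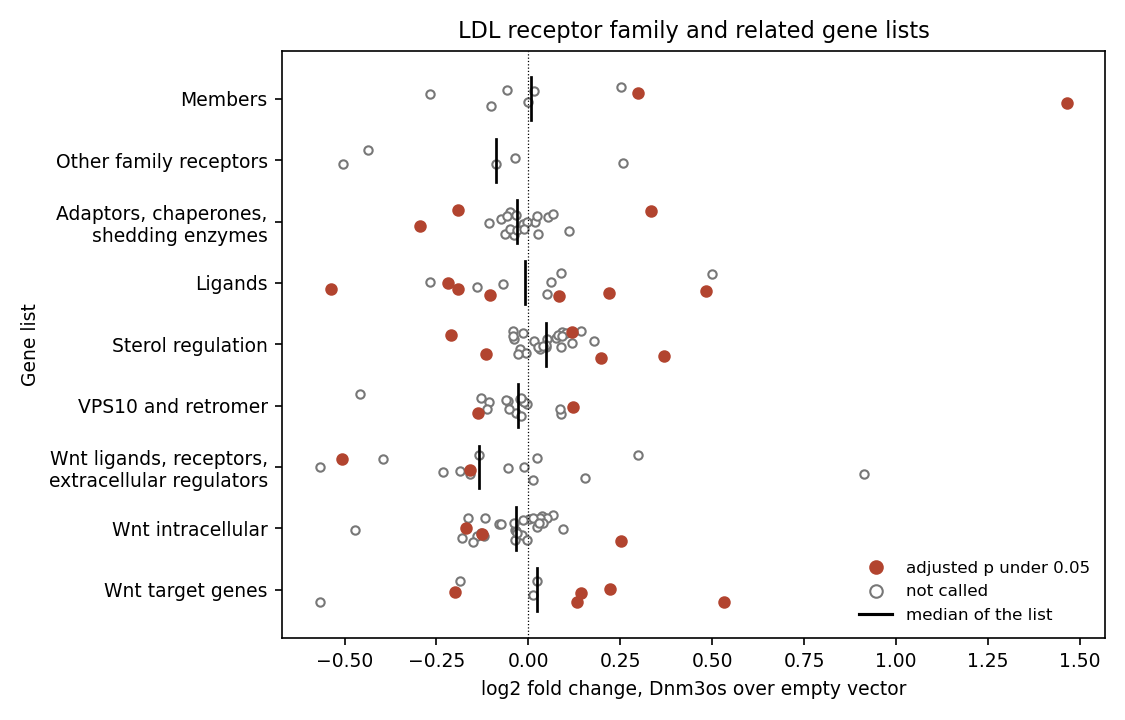
Log2 fold change, Dnm3os over empty vector, of the tested members and of the tested genes of each related list; each point is a gene, filled where the adjusted p was under 0.05, with a line at the list's median. All list medians lie between -0.13 and 0.05, and Lrp5 at 1.47 lies to the right of every other point.

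The 3 genes whose profile over the 4 libraries was nearest to that of Lrp5, of 9956 compared by Euclidean distance of log2 CPM centred on each gene's mean, were Blnk (distance 0.096), Kctd12 (0.098) and Gpr179 (0.107). Blnk, a signalling adaptor known from B cells, had 19.9 and 21.6 CPM with Dnm3os, against 7.80 and 7.13 CPM with the empty vector. Kctd12, an auxiliary subunit of GABA-B receptors, had 30.5 and 33.5 CPM with Dnm3os, against 11.5 and 11.2 CPM with the empty vector. Gpr179, an orphan receptor known from the retina, had 11.2 and 11.4 CPM with Dnm3os, against 4.07 and 4.29 CPM with the empty vector. The likeness rests on 4 libraries in 2 groups.

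Across the series, libraries held between 48480628 and 65610942 counts, of which between 29329201 and 39640782 fell on the kept transcripts. Dnm3os itself had 208 and 260 counts in the Dnm3os libraries, against 0 and 0 in the empty vector libraries. In all, 1609 genes (12.2% of those tested) were called, 851 higher and 758 lower. These counts were 488 and 456 once Dnm3os library 1 was dropped, and 434 and 372 once Dnm3os library 2 was. Of 9 macrophage markers, 8 could be tested, of which 4 rose and 2 fell. On the log2 scale Itgam (1.01), Fcgr1 (0.75), Csf1r (0.27) and Lyz2 (0.15) rose, and Adgre1 (-0.30) and Cd68 (-0.11) fell. Summed, the 9 markers were at 10238 and 9741 CPM with Dnm3os, against 9035 and 8868 CPM with the empty vector. Most of this sum was Lyz2, at 8062 and 7600 CPM with Dnm3os, against 7110 and 6961 CPM with the empty vector. Mertk was near 0. Markers of T cells, B cells, fibroblasts and epithelium summed to at most 0.142 CPM per library, with Cd3e, Col1a2 and Epcam among those at 0. Endothelial markers summed to 1.02 and 0.907 CPM with Dnm3os, against 0.327 and 0.454 CPM with the empty vector. Most of this was Kdr, at 0.716 and 0.644 CPM against 0.201 and 0.312 CPM. Neuronal markers summed to 2.42 and 3.33 CPM with Dnm3os, against 1.41 and 1.65 CPM with the empty vector. Most of this was Syp, at 1.98 and 2.63 CPM against 0.905 and 1.14 CPM. Kdr and Syp were called higher, Snap25 was not called, and no other endothelial or neuronal marker could be tested. The part of these markers in the differences of Lrp5 and Lrp12 was not tested.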

How the data were processed

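Per the labels, poly(A) RNA was prepared with TruSeq reagents for Illumina sequencing. TopHat, Bowtie2, DESeq2 and the build mm9 appear in the submitters' processing notes without their roles. What counted the reads, on which annotation version and with which strand setting is not given in the sources used here. Per the file headers, the authors deposited raw read counts for 35786 RefSeq transcripts and a normalized column. By its values, this deposited signal is the count times 1 constant per library (0.8653 to 1.1723), and it served only as an alternative scaling.

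Gene names came from RefSeq for 35499 transcripts and from GENCODE for 178, and 109 stayed unnamed, with 0.246 to 0.276% of counts, and were left out. All 9 members matched. The kept transcripts were filtered (filterByExpr), scaled (TMM, factors 0.9971 to 1.0031) and tested in edgeR 4.0.16 under R 4.3.3 (glmQLFit with robust set, glmQLFTest, two-sided), with Benjamini-Hochberg adjustment over 13136 genes and a threshold of 0.05. The test was checked on data simulated with the levels and spread of these libraries, which cannot show how it fares with spread between cultures. SE was taken as |log2 fold change| divided by F's square root, and 95% intervals use the fit's degrees of freedom. With 2 libraries a group, an exact permutation test of a single gene cannot pass, so none was run. Lengths came from GENCODE M21 models matched by RefSeq accession (97.4% of genes tested); the counts' annotation may differ. Apart from promoter windows no coordinates are given, since the reference is GRCm38 and the processing notes name mm9.

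The members, the lists and the tests were chosen with earlier results of these data known. Named genes were all members, from every list at most 4 called genes, taken by adjusted p, and the 3 profiles nearest to that of the member with the smallest p, searched among genes averaging 5 CPM or more. Some genes that this rule takes are not reported here. The alternatives were RLE, upper-quartile, total-count and the authors' scaling, DESeq2 1.42.0, limma-voom (limma 3.58.1), no filter, a filter at 1 CPM in 2 libraries, isoforms summed, every transcript as a row, a replicate block and each library left out in turn.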

Additional observations from a re-analysis of the deposited data

How the results depend on the processing

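Lrp5 kept its direction and its call under all 15 alternatives (log2 fold change of at least 1.44). The members called higher were 2 under each alternative except DESeq2, where they were 1, since Lrp12 was lost. The members called lower were 1, Lrp1, with the replicate block, and 0 to 1 with each library left out in turn. With DESeq2, 398 genes were called higher and 359 lower; with each library left out in turn, 434 to 802 were called higher and 372 to 784 lower. The sign of members near 0 turned, none of them called: Lrp10 was at 0.000378 by limma-voom and ranged from -0.036 to 0.028 with each library left out in turn (0.028 without empty vector library 2; 0.020 with Dnm3os library 1 left out), and Lrp8 ranged from -0.035, without Dnm3os library 2, to 0.060. Sorl1, Lrp6 and Lrpap1 kept their sign and were not called under any of the 15 alternatives. The replicate block changed the call of no other member and called 1576 genes in all, against 1609 without it. The labels share only a number between groups, and the deviations of same-numbered libraries had a correlation of -0.06 over all genes tested and -0.20 over the 9957 genes averaging 5 CPM or more, while crossed numbers, an alternative chosen after seeing the data, called 2007 genes. A fit without a library takes the spread of the lone library from the others. Vldlr, with 0 counts in each library, did not pass the filter and was not tested, and Sorl1 had at most 204 counts in a library.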
